A study of Mus musculus with 11 samples.

Results

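Methylated promoters that carry CpG islands are the exception in newborn mouse pancreas. They were defined as autosomal promoter windows of 2000 bp, reaching 1500 bp before and 500 bp past a gene start, that overlap an annotated CpG island by at least 1 bp. Members were chosen by the methylation of the control mice, with a group mean of 50% or more, and by a mean coverage of 10 or more in controls and amphetamine-treated mice alike. Of 24391 promoters in the series, 23176 were autosomal, 12832 of these overlapped an island, 12783 also passed the coverage minimum and 239 (1.87% of the 12783) were methylated. The 239 windows lie at 226 separate loci on every autosome except chromosome 16. DNA was taken from whole pancreata of wild-type C57BL/6N mice on postnatal day 0 and read by RRBS (reduced representation bisulfite sequencing). In this assay restriction fragments rich in CpG are sequenced after bisulfite conversion so that a methylated cytosine still reads as C. Dams received amphetamine at 10 mg/kg on embryonic days 14.5, 15.5 and 16.5, and their 5 offspring (3 females and 2 males) were compared with 6 offspring labelled saline (3 females and 3 males). The tables give the mean, SD, lowest and highest mouse of each group. Litter was not given for each mouse, so the spread is that between offspring, some of which may share a dam.

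A CpG island is a stretch of DNA where CpG sites are dense. In somatic cells most islands at gene starts carry no methylation, whether the gene is active or not. The known exceptions include genes of germ cells, which are methylated after implantation and stay silent outside the germline, and imprinted genes, where the methylation inherited from 1 parent is kept so that only 1 of the alleles is methylated. Copies of messenger RNA inserted into the genome (processed pseudogenes) and island-like remnants elsewhere are also commonly methylated.

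The bases just upstream of the gene start are shown for 7 promoters on which the description turns, 4 germ cell genes followed by 3 imprinted genes. Each line gives the 250 bases before the gene start, 5′ to 3′ on the strand of the gene, from the RefSeq assembly of GRCm38 (mm10), with every CpG in capitals.
Dazl (chr17:50293600-50293849, minus strand): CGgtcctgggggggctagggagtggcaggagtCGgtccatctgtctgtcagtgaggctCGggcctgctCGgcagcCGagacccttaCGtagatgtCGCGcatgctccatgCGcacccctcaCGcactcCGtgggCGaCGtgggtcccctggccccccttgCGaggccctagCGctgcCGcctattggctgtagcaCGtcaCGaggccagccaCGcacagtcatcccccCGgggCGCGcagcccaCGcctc
Sycp1 (chr3:102936101-102936350, minus strand): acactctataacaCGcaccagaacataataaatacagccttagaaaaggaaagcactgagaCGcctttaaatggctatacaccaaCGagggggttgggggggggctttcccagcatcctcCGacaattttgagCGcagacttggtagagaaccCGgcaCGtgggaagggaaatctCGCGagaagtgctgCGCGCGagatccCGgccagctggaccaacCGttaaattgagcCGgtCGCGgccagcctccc
Sycp3 (chr10:88459319-88459568, plus strand): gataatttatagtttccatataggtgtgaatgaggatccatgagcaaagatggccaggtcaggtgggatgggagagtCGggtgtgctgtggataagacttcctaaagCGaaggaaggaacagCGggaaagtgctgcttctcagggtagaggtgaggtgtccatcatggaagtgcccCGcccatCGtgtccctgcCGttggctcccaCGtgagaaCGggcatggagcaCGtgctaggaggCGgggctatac
Mael (chr1:166238748-166238997, minus strand): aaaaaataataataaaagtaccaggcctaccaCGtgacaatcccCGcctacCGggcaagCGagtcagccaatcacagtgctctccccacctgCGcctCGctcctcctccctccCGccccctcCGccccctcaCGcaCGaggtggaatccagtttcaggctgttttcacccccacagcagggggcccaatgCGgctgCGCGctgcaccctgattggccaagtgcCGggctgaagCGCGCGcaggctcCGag
Peg3 (chr7:6730422-6730671, minus strand): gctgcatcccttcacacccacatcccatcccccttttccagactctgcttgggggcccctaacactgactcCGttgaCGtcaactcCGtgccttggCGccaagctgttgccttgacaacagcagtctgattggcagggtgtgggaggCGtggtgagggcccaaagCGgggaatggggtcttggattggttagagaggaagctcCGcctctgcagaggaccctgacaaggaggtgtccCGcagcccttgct
Nnat (chr2:157559828-157560077, plus strand): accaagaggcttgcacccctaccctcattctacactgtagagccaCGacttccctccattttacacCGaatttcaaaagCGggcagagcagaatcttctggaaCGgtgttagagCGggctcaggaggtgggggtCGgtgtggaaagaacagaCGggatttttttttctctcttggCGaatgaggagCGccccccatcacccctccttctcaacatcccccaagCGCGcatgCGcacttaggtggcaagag
Gnas (chr2:174284070-174284319, plus strand): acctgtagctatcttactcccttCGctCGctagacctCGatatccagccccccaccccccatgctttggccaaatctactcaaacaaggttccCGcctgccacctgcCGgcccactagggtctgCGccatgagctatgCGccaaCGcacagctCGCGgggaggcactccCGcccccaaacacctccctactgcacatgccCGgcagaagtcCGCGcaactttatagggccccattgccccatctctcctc
Within these stretches Dazl held 23 CpG sites, the most of the 7, and Peg3 held 8, the fewest. Sycp1 and Mael each held 1 copy and Sycp3 held 2 copies of the E-box CACGTG.

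Methylation of promoters with an island was nearly all low. In controls 11044 of the 12783 covered island promoters (86.4%) were under 10%, 984 (7.70%) lay between 10 and 20%, and 516 (4.04%) between 20 and 50%. Above the limit, 114 lay between 50 and 75%, 87 between 75 and 90%, and 38 at 90% or more. The median was 76.8% in controls over the 239 methylated promoters, against 2.55% over the 12544 island promoters under the limit. Promoters without an island showed the opposite picture, with 5940 of 8998 (66.0%) at 50% or more.

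**Figure D1:**
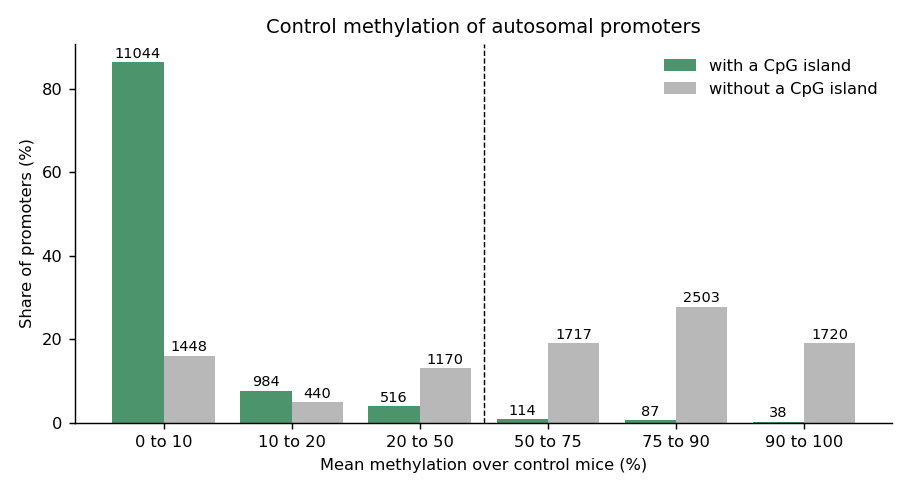
Share of covered autosomal promoters (y axis, %) by mean methylation over the control mice (x axis, %), for 12783 promoters with an island (green) and 8998 without (grey), with the number of promoters above each bar and a dashed line at the 50% limit. Of the island promoters, 239 lie to the right of the line, with 38 at 90% or more.

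No gap in methylation marked the limit. Island promoters just under it included Plec at 49.03% and Cdc23 at 49.9% in controls, and the 3 just above it were Gm27899 at 50.05%, Gm16372 at 50.2% and Krtcap3 at 50.5%. Their SDs between control mice ran from 14.2 to 24.1 percentage points, which is larger than their distance from the limit. After amphetamine 19 of the 239 promoters (7.95%) had a mean under 50%. Since all 239 were chosen at 50% or more in controls, only falls can be counted this way. With the amphetamine mean in place of the control mean, 244 island promoters reached the limit.

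The methylated promoters were read less deeply than other island promoters. Their mean coverage had a median of 162 in controls and 197 after amphetamine, with a range from 11.5 to 14942 in controls, against medians of 357 and 442 over the island promoters under the limit. Coverage was higher after amphetamine in 203 of 239, with a median ratio of 1.26, and the median ratio over all autosomal promoters was 1.24. Reads were present in all 11 mice for 221 promoters, and the other 18 rest on as few as 3 controls and 2 amphetamine-treated mice. In all, 16 windows share their reads, and thus all values, with another of the 239, which leaves 231 separate sets of values.
The mice followed their labels for sex, as X-linked island promoters had a median of 29.5% in females and 3.66% in males. Promoters of acinar (1 with an island), islet (12), duct (1), blood (1) and mesenchyme (1) marker genes that carry an island were all under 20% in controls, and none of them is among the 239. The 12 islet promoters ranged from 1.69 to 8.003%. Of 11 covered island promoters of serotonin signalling genes, 10 were under 20% and none reached 50%. A promoter level does not give the share of a cell type, so the makeup of the pancreata could not be read from these values.

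Germ cell genes and processed pseudogenes were frequent among the members. Of 40 covered island promoters on a list of genes expressed in the germline, 20 (50%) were methylated, 4 lay between 20 and 50% and 16 were under 20%. By comparison, 114 of 10728 protein-coding island promoters (1.06%) were methylated. Of 35 covered island promoters on a list of imprinted genes, 8 (22.9%) reached the limit, 7 lay between 20 and 50% and 20 were under 20%. Of 164 island promoters of processed pseudogenes, 77 (47.0%) were methylated, so that 32.2% of the 239 came from a type that holds 1.28% of all covered island promoters. Long non-coding RNAs gave 25 of 1226 (2.04%), and the class of microRNAs and small nucleolar RNAs gave 14 of 264 (5.30%). Zinc finger genes, a large family with island promoters, gave 1 of 209 (0.478%). The clustered protocadherins gave 1 of 4 windows and the olfactory and vomeronasal receptors 0 of 6. By name, 110 windows belong to predicted or Rik genes, of which 57 are processed pseudogenes and 27 are annotated as protein-coding, 70 to other named genes, 6 to ribosomal protein genes or their pseudogenes, and 9 carry no symbol.

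**Figure D2:**
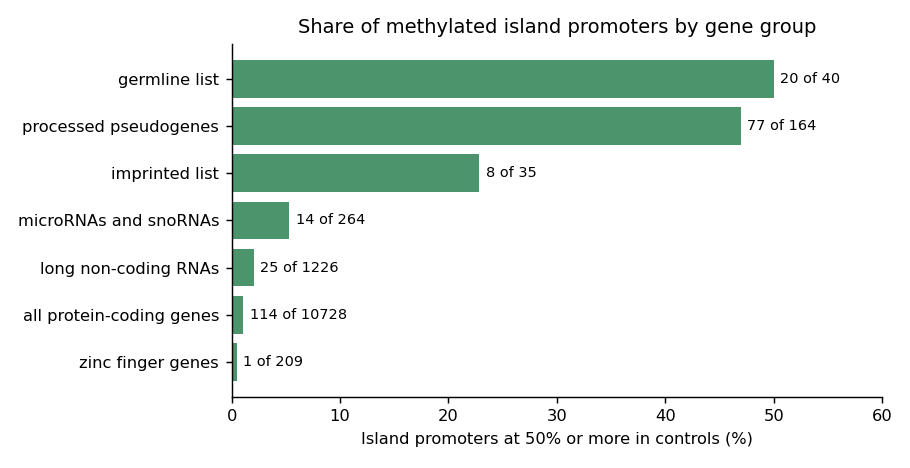
Share (x axis, %) of covered autosomal island promoters that reached 50% in controls, by gene group (y axis), with the numbers beside each bar. Groups overlap, since germline, imprinted and zinc finger genes are mostly protein-coding. The share is 50% for germline genes, 47.0% for processed pseudogenes and 1.06% for all protein-coding genes.

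The islands of these promoters were small. The median length of the overlapped island was 336 bp, against 652 bp for the island promoters under the limit, and the median CpG count of the 2000 bp window was 54 against 86. CpG density within the island was alike, with a median ratio of observed to expected CpG of 0.872 against 0.894. The gene start fell inside the island in 127 of 239 (53.1%), against 77.8% of the island promoters under the limit. In germline members this was the case for 16 of 20 and in imprinted members for 3 of 8. In 55 of the 239 (23.0%) the island touched an exon of another protein-coding gene, against 28.3% of the island promoters under the limit.

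Methylation of the window and of its island were different measures in part of the group. In 175 of the 239 (73.2%) the overlapped island was itself at 50% or more in controls, with a median of 83.1%. In 14 it lay between 20 and 50%. In the other 50 (20.9%) the island was under 20%, with a median of 1.98%, although the window had a median of 62.2%, so the level of the window did not describe the island. In these 50 windows the gene start fell inside the island in 14 (28.0%), control coverage had a median of 81.5 and the SD between control mice a median of 19.3 percentage points, against 183 and 8.86 where the island was methylated. Rpl22, which encodes a protein of the large ribosomal subunit, was one such case, with 55.9% ± 8.77 (SD, n = 6) in the window and 0.952% in the island. Zfp658, the single member of the class of zinc finger genes set by name, had 64.0% ± 9.64 (SD, n = 6) in the window and 9.57% in the island. Among the imprinted genes Plagl1, a zinc finger factor expressed from the paternal allele, had 74.96% in the window and 15.9% in the island, which overlaps the window by 82 bp. In germline members the island was at 50% or more in 18 of 20.

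**Figure D3:**
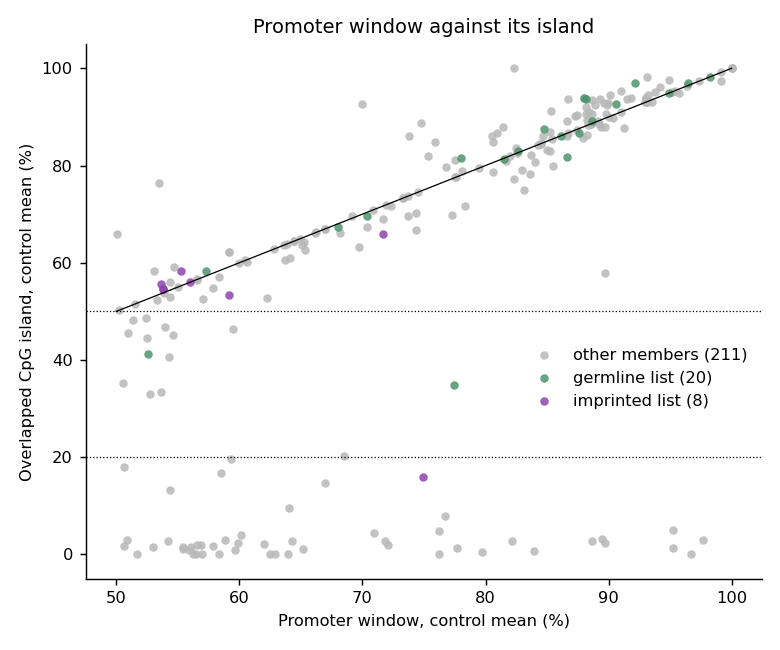
Control mean of the overlapped CpG island (y axis, %) against that of the promoter window (x axis, %) for the 239 methylated island promoters, with germline genes in green, imprinted genes in purple and the others in grey. The solid line marks equal values and the dotted lines 20 and 50%. Most points follow the solid line, while 50 have an island under 20%.

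Short motifs were counted near the gene start. The letters were searched over the 250 bp before and the 50 bp after each gene start. The E-box CACGTG, the same on both strands, was present in 9 of 20 germline members (45.0%), in 8.44% of the 237 members with an annotated start, in 10.2% of the island promoters under the limit and in 8.12% of covered autosomal promoters. Among the 9 are Ddx4, Mael, Slc25a31, Sycp1, Sycp3 and Tdrd1. The sequence TTCCCGC or its complement GCGGGAA, of the kind bound by E2F6, was present in 7 of 20 germline members (35.0%), in 9.70% of members, in 9.17% of the island promoters under the limit and in 6.31% of covered autosomal promoters. The sequence TGCCGC or its complement GCGGCA, which is the core read by ZFP57 at imprinted loci when methylated, was present in 4 of 8 imprinted members, namely Mcts2, Nnat and the overlapping windows of Peg10 and Sgce, in 16.9% of members, in 21.8% of the island promoters under the limit and in 15.9% of covered autosomal promoters. Over the whole 2000 bp window the imprinted members held a median of 3 copies of this sequence, with a range from 0 to 6, the 239 a median of 0 and the island promoters under the limit a median of 1. These are matches of letters and not bound sites.

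The germline members were highly methylated with little spread between mice. Their control means ran from 52.6 to 98.2% with a median of 86.4%, and 16 of 20 were at 75% or more. The median SD between control mice was 6.98 percentage points, at a median coverage of 282. Dazl, an RNA-binding protein needed for germ cell development, had the deepest coverage of the 20 (977 in controls). Its window at chr17:50293100-50295099 held 77.5% ± 4.33 (SD, n = 6; lowest 71.1, highest 82.7) in controls and 86.5% ± 5.79 (SD, n = 5; lowest 80.01, highest 92.3) after amphetamine, with overlapping ranges. Its island was lower, at 34.8% in controls and 46.9% after amphetamine. D1Pas1, a DEAD-box helicase of the testis, held 88.1% ± 3.18 (SD, n = 6) in controls and 84.96% ± 5.95 (SD, n = 5) after amphetamine. Sycp1, a protein of the synaptonemal complex that joins paired chromosomes in meiosis, held 84.8% ± 6.24 (SD, n = 6; lowest 74.8, highest 91.1) in controls and 90.6% ± 2.22 (SD, n = 5; lowest 88.1, highest 93.4) after amphetamine. Sycp3, of the same complex, held 81.5% ± 9.56 (SD, n = 6) and 87.2% ± 0.828 (SD, n = 5). Its 5 amphetamine-treated mice lay between 86.2 and 88.4%, inside the control range of 66.5 to 92.2%. Mael, a factor of the piRNA pathway that silences transposons in germ cells, held 82.7% ± 6.68 (SD, n = 6) in controls and 89.0% ± 5.69 (SD, n = 5) after amphetamine. The piRNA genes Piwil2, which encodes a PIWI protein, and Tdrd1, which encodes a Tudor domain protein, held 88.0% ± 5.90 and 70.3% ± 6.61 (SD, n = 6) in controls and 92.3% ± 4.97 and 76.7% ± 6.15 (SD, n = 5) after amphetamine. The values of Piwil2 are also those of Gm24890, whose window shares its reads. Slc25a31, the ADP/ATP carrier of sperm, held 87.6% in controls and 91.5% after amphetamine, and Hsf5, a heat shock factor family member of spermatocytes, 86.2% and 89.1%. Dmrtb1 held 88.7% and 85.6%, Sycp2 78.0% and 78.5%, and Rpl10l, a retrocopy of a ribosomal protein gene used in the testis, 96.5% and 96.9%.

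Imprinted members had lower means and a wider spread between mice. Their control means ran from 53.6 to 74.96% with a median of 55.6%, and their SDs between control mice had a median of 22.9 percentage points. Peg10 and Sgce share all their reads and have the highest SD, 33.1, so counting both of them raises this median. Other members with control means from 50 to 75% and a control coverage of at least 80, the lowest of the imprinted members being 80.3, had a median SD of 14.4 (n = 79). Nnat, a membrane protein gene expressed from the paternal allele, held 53.6% ± 31.7 (SD, n = 6) in controls, and single control mice ran from 0.699 to 97.2%. After amphetamine it held 56.7% ± 13.5 (SD, n = 5; lowest 39.4, highest 70.7). Peg10, a retrotransposon-derived gene expressed from the paternal allele, and its divergent neighbor Sgce share all their reads. Both windows held 53.8% ± 33.1 (SD, n = 6; lowest 16.7, highest 92.3) in controls and 56.6% ± 26.3 (SD, n = 5; lowest 16.8, highest 87.8) after amphetamine, so a mean near 50% did not stand for values near 50% in single mice. Mcts2, a paternally expressed retrogene, held 56.0% ± 15.6 (SD, n = 6) and 55.5% ± 11.7 (SD, n = 5). Peg3, a zinc finger gene expressed from the paternal allele, held 55.2% ± 8.46 (SD, n = 6; lowest 44.8, highest 63.5) and 45.1% ± 18.9 (SD, n = 5; lowest 23.1, highest 63.0). Plagl1 held 74.96% ± 18.7 (SD, n = 6) and 69.9% ± 15.5 (SD, n = 5). Airn, the paternally expressed non-coding RNA that silences its neighbor Igf2r, held 59.2% ± 27.1 (SD, n = 5; lowest 29.1, highest 100) in controls and 84.5% ± 19.3 (SD, n = 5; lowest 57.0, highest 100) after amphetamine, with no reads in the remaining control.

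Gnas showed the largest difference between treatment groups of all 239. The locus encodes the stimulatory G protein alpha subunit and several imprinted transcripts from alternative starts. The window at chr2:174282820-174284819 lies at its most upstream annotated start and held 71.7% ± 7.31 (SD, n = 6; lowest 59.98, highest 79.3) in controls and 38.2% ± 16.7 (SD, n = 5; lowest 15.6, highest 60.16) after amphetamine. The difference in means was -33.4 percentage points, which is larger in size than both SDs, and the highest amphetamine-treated mouse just passed the lowest control. The island that overlaps 172 bp of the window, at chr2:174284648-174285390, held 65.9% ± 20.7 (SD, n = 6) and 54.0% ± 22.4 (SD, n = 5), so the difference there was smaller than either SD. The next window, of Gm27899, overlaps the same island and held 50.05% ± 16.7 (SD, n = 6) in controls and 56.6% ± 4.09 (SD, n = 5) after amphetamine, which is the opposite direction. A longer island farther downstream in the locus, chr2:174298464-174300644, held 56.3% ± 6.68 (SD, n = 6) and 55.5% ± 8.78 (SD, n = 5). The other islands between these were thinly covered. That at chr2:174297263-174297532 held 3.89% ± 9.52 (SD, n = 6) in controls and 31.0% ± 35.8 (SD, n = 4) after amphetamine, at mean coverages of 30 and 61.8. That at chr2:174286012-174286221 held 50% in 2 controls, which lay at 0 and 100, and 75% in 4 amphetamine-treated mice, at mean coverages of 10.5 and 17.2. The most downstream island, chr2:174327294-174331145, held 19.04% ± 3.67 (SD, n = 6) and 16.3% ± 2.23 (SD, n = 5). In females and males the Gnas window held 54.3% and 59.1%.

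**Figure D4:**
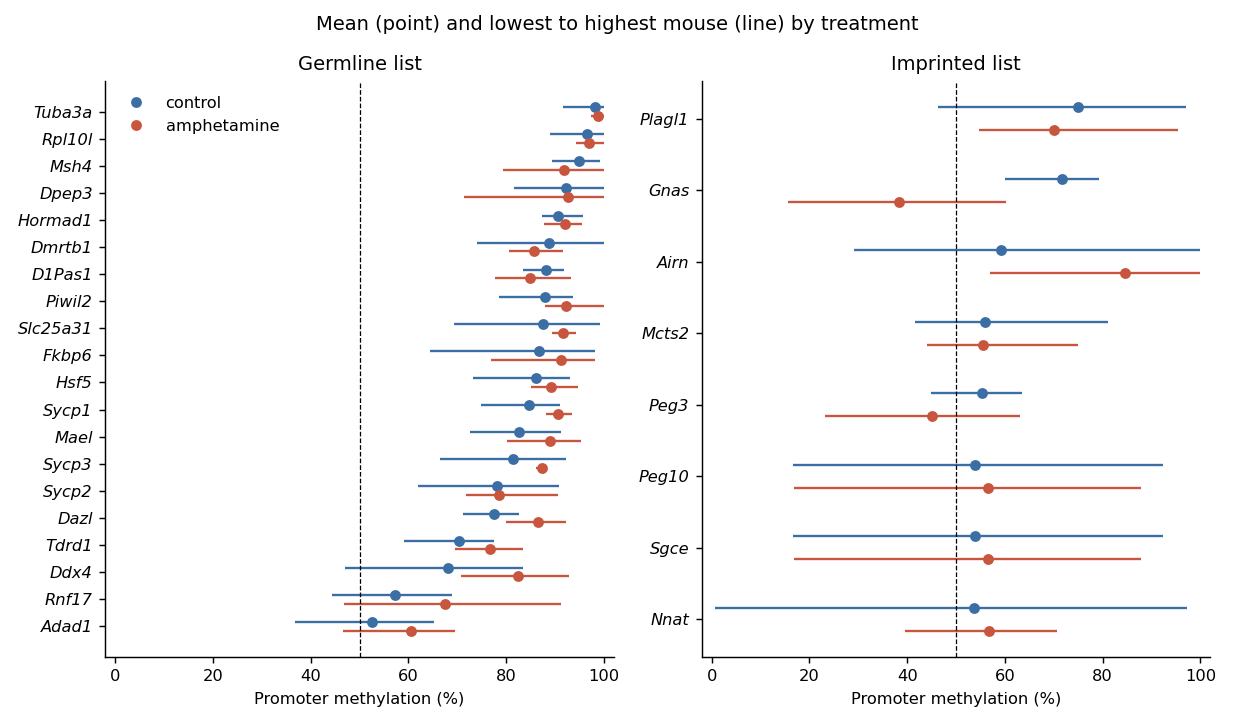
Promoter methylation (x axis, %) of the 20 germline (left) and 8 imprinted (right) members in 6 control (blue) and 5 amphetamine-treated (red) mice. Points are means, lines run from the lowest to the highest mouse, and the dashed line marks the 50% limit. Germline genes sit mostly above 75% with short lines, while imprinted genes have long lines, from 0.699 to 97.2% for Nnat in controls. Sgce and Peg10 share their reads.

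Retrocopies and predicted genes made up most of the remaining windows. The 77 processed pseudogenes had a median of 79.5% in controls and 79.2% after amphetamine, a median island overlap of 255 bp, and a gene start inside the island in 71.4%. Rpl28-ps1 and Rpl36-ps2, copies of ribosomal protein messages, held 77.6% ± 4.10 and 96.4% ± 2.05 (SD, n = 6) in controls and 80.9% ± 6.64 and 92.1% ± 3.47 (SD, n = 5) after amphetamine. For 52 of the 239 windows, 32 of them processed pseudogenes, a stretch of at least 200 bp matched another place in the genome at 98% identity or more, so their reads could have been shared and their values are uncertain. No germline or imprinted window was among the 52. They include the deeply covered 3110070M22Rik (86.6% ± 5.88, SD, n = 6, in controls), Gm13238 (54.3% ± 5.04) and Gm13241 (53.3% ± 4.30). Sfi1, a centrosomal protein gene, had the highest coverage of all, 14942 in controls against a member median of 162. It held 88.6% ± 1.61 (SD, n = 6) in controls and 88.4% ± 1.77 (SD, n = 5) after amphetamine. The search for copies found none for Sfi1, and whether reads from other places add to its coverage was not tested. Tmem181b-ps held 89.8% and Pabpc6, a member of the poly(A)-binding protein family, 94.2% in controls. Among windows of small RNA genes Mir6991 held 59.5%, Mir692-2 59.1% and Gm22721 91.0% in controls. The protocadherin alpha window, shared by several members of the Pcdha cluster of neuronal adhesion proteins, held 51.4% ± 18.6 (SD, n = 6) in controls and 52.8% ± 11.04 (SD, n = 5) after amphetamine.

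Across the 239 promoter windows treatment groups overlapped throughout. The differences below are a description without a test, because the control mean that chose the members is part of each difference. Methylation after amphetamine was higher in 130 and lower in 109, with a median difference of 0.40 percentage points and quartiles of -3.89 and 4.52. Over covered promoters without an island that were at 50% or more in controls, 47.3% were higher and the median difference was -0.319 percentage points. Over all covered autosomal promoters 48.8% were higher. The lowest and highest values of the groups overlapped in all 239, so the count of promoters whose groups did not overlap was 0, against 0.441% of covered autosomal promoters. The difference was larger than both SDs in 14 of 239 (5.86%), close to the 6.52% of covered autosomal promoters. It passed 10 percentage points in 47 (19.7%) and 25 points in 8 (3.35%). These shares were 27.6% and 4.14% over the promoters without an island at 50% or more in controls, and 11.1% and 1.75% over covered autosomal promoters. Differences were larger where coverage was low, as the median absolute difference was 7.14 percentage points in the 34 promoters with a control coverage under 50 and 3.74 in the 128 with 150 or more.

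Within classes the picture was as follows. Germline members were higher after amphetamine in 17 of 20, with a median difference of 4.14 percentage points, and 12 of the 20 differed by less than 5 points. Those past 10 points were Ddx4, a helicase that marks germ cells, at 68.0% ± 14.4 (SD, n = 6) in controls and 82.5% ± 7.88 (SD, n = 5) after amphetamine, and Rnf17, singled out after its values were seen, at 57.3% ± 9.08 and 67.4% ± 18.5. Only Ddx4 and Dazl had a difference larger than both SDs. The 3 lower members were D1Pas1, Dmrtb1 and Msh4, the last also singled out after its values were seen, each by less than their larger SD. Of the 27 covered germline promoters at 50% or more without an island, 15 were higher and the median difference was 0.406 percentage points, and of the 20 with an island and a control mean under 50%, 12 were higher with a median of 0.261. Of the 12 without an island and with a control mean under 50%, 11 were higher with a median of 6.38 percentage points, and of the 4 with an island between 20 and 50%, 3 were higher with a median of 5.12. Coverage was higher after amphetamine in 17 of the 20 germline members and in 203 of all 239. The part of coverage in the differences was not tested. Imprinted members were higher in 4 of 8 and lower in 4, from -33.4 for Gnas to 25.3 percentage points for Airn. Other named genes were lower in 42 of 70, with a median of -2.96 percentage points. This class still holds genes of the testis that are not on the germline list, so the 17 of 20 describes the list only. Ly6k, one of these, was higher after amphetamine, and the direction of the others was not counted. Predicted and Rik genes were higher in 64 of 110, with a median of 0.683, and processed pseudogenes in 43 of 77, with a median of 0.315.

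Windows were also split by the methylation of their island. Where the island was at 50% or more the window was higher after amphetamine in 101 of 175, with a median difference of 0.644 percentage points. Where it lay between 20 and 50% the window was higher in 11 of 14, with a median of 6.79 and a median control coverage of 216. Where it was under 20% the window was lower in 32 of 50, with a median of -3.21, and these windows had the low coverage given above. After Gnas the lowest were Tmem184c at 58.3% ± 37.6 and 28.8% ± 34.1, Golga2, a Golgi matrix protein gene, at 59.6% ± 31.9 and 31.3% ± 17.8, Sema3f, a secreted axon guidance factor, at 56.5% ± 32.6 and 29.7% ± 6.06, and the pseudogene Gm12247 at 62.5% ± 41.3 and 35.7% ± 22.4 (SD, n = 6 and n = 5). Their mean coverages in controls were 22.7, 38.8, 28.0 and 33.3, and each of their islands was at 1.995% or less. On the other side, promoters were taken with a symbol, reads in all 11 mice and SDs above 0. Highest among them were Miat, a long non-coding RNA, at 56.9% ± 31.3 in controls and 81.5% ± 15.6 after amphetamine, Ly6k, a cell surface protein of the testis, at 66.2% ± 14.3 and 89.7% ± 14.4, Gm12241 at 56.5% ± 14.6 and 74.7% ± 6.22, Dcdc2c at 62.8% ± 34.2 and 77.4% ± 13.7, and Ddx4. ENSMUSG00000103147, which has no symbol, held 77.5% ± 9.42 (SD, n = 6) and 93.3% ± 14.9 (SD, n = 5), a larger difference than those of Dcdc2c and Ddx4 and larger than both of its SDs. Larger rises than that of Miat were seen without reads in every mouse. They include Airn, given above, ENSMUSG00000103415 at 71.0% (n = 4) and 100% (n = 4), and ENSMUSG00000103137 at 70.8% (n = 4) and 96.1% (n = 3). In each of the 10 promoters named under the filters for a symbol, reads in all 11 mice and SDs above 0 the ranges of the groups overlapped. Of these 10, only Gnas, Ly6k, Gm12241 and Ddx4 differed by more than both SDs.

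**Figure D5:**
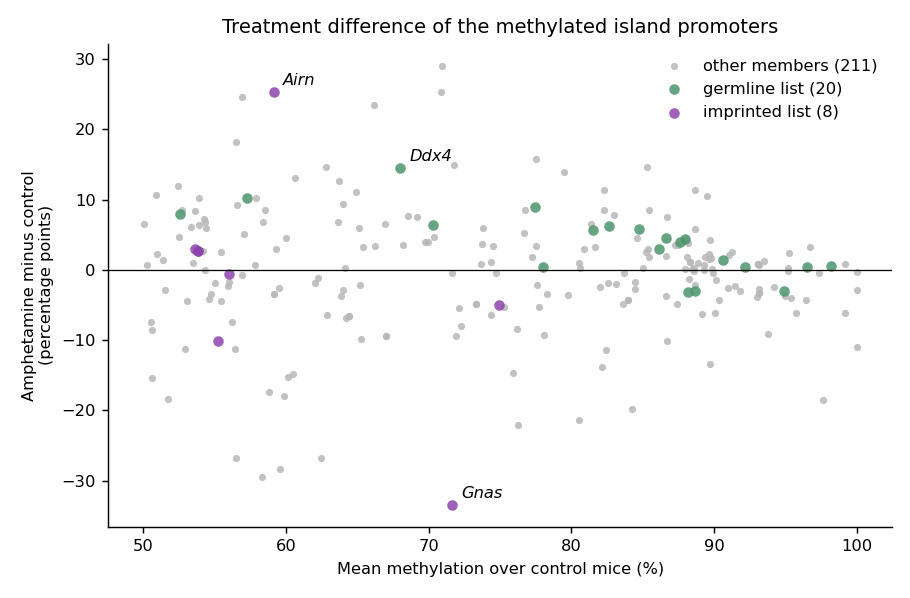
Difference in mean methylation, amphetamine minus control (y axis, percentage points), against the control mean (x axis, %) for the 239 promoters, with germline genes in green, imprinted genes in purple and the others in grey. Green points lie above 0 in 17 of 20, while Gnas and Airn are the farthest imprinted genes on either side of 0.

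Sex was not used to choose the promoters and was therefore tested, with limma's moderated test rebuilt from the group means and SDs of 6 females and 5 males over 24293 promoters. None of the 239 passed an adjusted p of 0.05 (0 of 239), against 0.0476% of autosomal promoters. At an unadjusted p under 0.05 the count was 15 (6.28%), 9 higher and 6 lower in females, against 4.62% of autosomal promoters. The difference was larger than both SDs in 21 of 239 (8.79%), and in 7.07% of covered autosomal promoters. The median difference, female minus male, was 0.79 percentage points, and 137 of 239 were higher in females. The median standard error was 6.53 percentage points, so differences of a few points were not detectable. The smallest adjusted p, 0.242 by limma, belonged to Mir6991, at 51.4% ± 8.67 (SD, n = 6) in females and 66.6% ± 3.03 (SD, n = 5) in males. Kbtbd8, at 34.5% ± 23.8 (SD, n = 6) in females and 76.2% ± 10.6 (SD, n = 5) in males, had the largest difference in the direction of males (-41.8 ± 11.1 percentage points, SE), with an adjusted p of 0.261 by limma. Groups did not overlap in 1 promoter, against 0.514% of covered autosomal promoters. It was Dak, singled out after its values were seen, with 65.8% ± 16.3 (SD, n = 6) in females, 97.1% ± 4.79 (SD, n = 4) in males and an adjusted p of 0.270 by limma.
In the other direction, among promoters with a symbol and reads in all 11 mice, Gm2423 held 94.4% in females and 55.6% in males. Herpud1, a stress protein of the endoplasmic reticulum, held 66.4% and 33.2%, and Sgce with Peg10 67.1% and 40.7%. Gm11226, with reads in 5 females and 5 males, had the largest difference of all 239, at 95.8% ± 5.29 and 47.0% ± 36.5 (SD). Its adjusted p was 0.548 by limma. Lower in females after Kbtbd8, among promoters with a symbol and reads in all 11 mice, were Sec1 at 74.8% and 94.3% and Gm13889 at 39.4% and 58.0%. ENSMUSG00000104360, which has no symbol, differed by more than both, at 62.3% ± 17.1 (SD, n = 6) in females and 84.8% ± 8.43 (SD, n = 5) in males, with an adjusted p of 0.630 by limma. Apart from Kbtbd8 and Gm11226, the adjusted p of the promoters with a symbol in these sentences ran from 0.781 to 0.912 by limma. No germline and no imprinted member reached an unadjusted p of 0.05, with median standard errors of 4.13 and 13.3 percentage points. The germline median difference was 0.344 percentage points.

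The gene bodies of the members were mostly methylated too. Of 210 members with a covered gene body, 170 had a gene body mean of at least 50% in controls, with a median of 76.0% in controls and 76.7% after amphetamine. Gene bodies overlap the last 500 bp of the promoter window, so the measures share CpG sites. In germline members the gene body was at 50% or more in 19 of 20, and was higher after amphetamine in 10 of 20, against 17 of 20 for the promoter.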

How the data were processed

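Pancreatic DNA of 11 neonatal mice was profiled by RRBS. The authors cut DNA with the enzymes MspI and TaqI. Single-end reads were then aligned to mm10 with Bismark inside the NextFlow methylseq pipeline. They summarized CpG sites per region and mouse in RnBeads. For Bismark and limma no version is given in the sources used here. The authors' deposited tables hold, for each region and group, the mean methylation as a fraction (0 to 1), its SD, lowest and highest mouse, the number of mice without reads, and the mean coverage. Methylation is printed here as a percent. Whether coverage counts reads or CpG observations was not stated. It has no scaling for depth. The tables used hold no column of values per mouse. They also hold the authors' own differences, log2 ratios, p-values and ranks, which were not used. The 5000 bp tiles were not used either.

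Groups were taken from the labels for treatment and sex. Members, gene lists and tests were chosen with earlier results of these data known. Promoter windows were joined to islands by an overlap of at least 1 bp, and each window was given the value of the island with the longest overlap. Biotypes came from GENCODE M21 (GRCm38), in which 237 of 239 members were found. The reference strain is C57BL/6J. Near-identical copies were sought with BLAST+ 2.17.0 (98% identity over at least 200 bp). The classes and the named genes followed fixed rules: all imprinted members, the 12 germline members of highest control coverage, up to 3 members of highest coverage in each other class, the 5 largest treatment differences and the 3 largest sex differences each way among promoters with a symbol, reads in all 11 mice and SDs above 0, and 3 promoters on either side of the 50% limit. Of these, 1 promoter is not reported here.

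Sex was tested with limma 3.58.1 in R 4.3.3 from group means and SDs, with Benjamini-Hochberg adjustment over all promoters with at least 2 mice per sex. In simulated data of 5000 promoters with 200 shifted by 4 SD, 98.5% of the shifted promoters were called. Smaller shifts were not simulated, so this share does not give the power for smaller differences. Alternatives were other coverage and methylation limits, other island definitions, the X chromosome, promoters with reads in every mouse, and for sex a variance trend, treatment as a second term and other filters. Summaries used Python 3.11.15 with pandas 2.3.3.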

Additional observations from a re-analysis of the deposited data

How the results depend on the processing

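The number of methylated island promoters (239) stayed within 1.5 times under no coverage minimum, a coverage of at least 50, the amphetamine mean or the mean over all mice in place of the control mean, the island value in place of the promoter value, and the X chromosome added. It fell to 125 at a control mean of at least 75% (68 higher and 57 lower after amphetamine), to 38 where the island covers at least 500 bp (19 higher and 19 lower), and to 127 where the island holds the gene start (68 higher and 59 lower), since each of these keeps fewer windows. The median treatment difference ran from 0.28 to 1.61 percentage points over all alternatives, the highest with members chosen by the amphetamine mean (154 higher and 90 lower). The median sex difference ran from -0.0716, at a control mean of at least 75%, to 4.35 percentage points. No member was called for sex by limma in the main test or in 5 alternatives, and 15 at an unadjusted p under 0.05. With 5 alternatives chosen after seeing the data, the germline median difference ran from 2.18 to 4.14 percentage points. The amphetamine mean, the mean over all mice and a coverage of at least 50 kept the same 20 promoters, so they could not move it. With the island value the germline median was 3.45 (15 of 18 higher), and at a control mean of at least 75% it was 2.18 (13 of 16 higher). Counting each set of shared reads once (231 windows) or leaving out windows with near-identical copies (187), also chosen after seeing the data, gave medians of 0.43 and 0.40. No paired analysis was possible because the labels give the groups no shared replicate numbers and the tables used hold group values. For the same reason leaving out each mouse in turn was not run, so no result here has been checked against the loss of 1 mouse. Low coverage limits the 34 members with a control coverage under 50, whose SD between controls had a median of 18.9 percentage points.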
